A study of Mus musculus with 12 samples.

Results

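The comparison described here sets cells sorted as SOX17+ against cells sorted as T+, across all genes, and uses 6 of the 12 libraries of the series, 3 of each group. All groups came from E14 mouse embryonic stem cells. T+ cells carried the reporter for T (Brachyury), SOX17+ cells carried the reporter for SOX17, and both were sorted from dissociated cultures after differentiation, whose protocol is not given in the labels. The other libraries entered only the filter on low values, the shared estimate of the spread, the plots that show all groups and some sums of marker lists. They were 3 of SOX17+/T+ cells, sorted as positive for both reporters, and 3 of undifferentiated mESC grown with serum and LIF on irradiated fibroblast feeders. Poly(A) RNA was sequenced, and expression is given as TPM (transcripts scaled for their length and to a common library total, so levels may be set side by side between genes). The table gives no counts, so the depth behind a value is unknown. Whether each group's libraries stem from independent cultures is not stated in the labels, so a p-value is set against library-to-library spread alone, which may be technical. Values of single libraries are given in the order of replicates 1, 2 and 3, and means as mean ± SD with n = 3.

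In the gastrulating embryo, epiblast cells pass through the primitive streak, lose epithelial junctions and become mesoderm or definitive endoderm. T is a T-box factor of the streak and of nascent mesoderm, whereas SOX17 is an HMG-box factor needed for definitive endoderm, which forms the gut lining and re-forms a polarised epithelium. Forkhead and GATA factors and the nuclear receptor HNF4A are known for opening and activating endodermal and liver genes, and T-box, mesodermal bHLH and HOX factors for patterning mesoderm.

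T and Sox17 separated as sorted, and since the gates read their reporters, their own differences can follow from the sort. Sox17 stood at 244, 211 and 235 TPM in SOX17+ and 7.96, 9.99 and 12.9 TPM in T+. T was at 2.27, 1.86 and 2.84 TPM in SOX17+ and 132, 92.1 and 158 TPM in T+. In both genes every library of one group lay above every library of the other. Of the 16097 genes tested, 8767 (54.5%) were called at a Benjamini-Hochberg adjusted p under 0.05 by limma, 4092 (25.4%) higher in SOX17+ and 4675 (29%) higher in T+. Differences are those of log2(TPM + 1), SOX17+ minus T+, ± the standard error of the fit, and most were small, with a median absolute difference of 0.21 over all genes. Since small differences passed in so many genes, list members are also counted as at least 2-fold when the difference was called and at least 1 on the log2 scale. That held for 1392 genes (8.65%), 797 (4.95%) higher in SOX17+ and 595 (3.7%) higher in T+, and at least 4-fold for 229 and 112. The counts of list members below are to be read beside these shares of all genes. All 3 libraries of SOX17+ lay above all 3 of T+ in 4455 genes (27.7%), and the opposite held in 5283 (32.8%). An exact permutation test of a single gene with 3 libraries against 3 cannot give a p below 0.1. Across genes, which are not independent replicates, SOX17+ libraries correlated with T+ libraries at r = 0.954 to 0.958. Among themselves, SOX17+ libraries correlated at 0.9949 to 0.9956 and T+ libraries at 0.9955 to 0.9961.

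**Figure D1:**
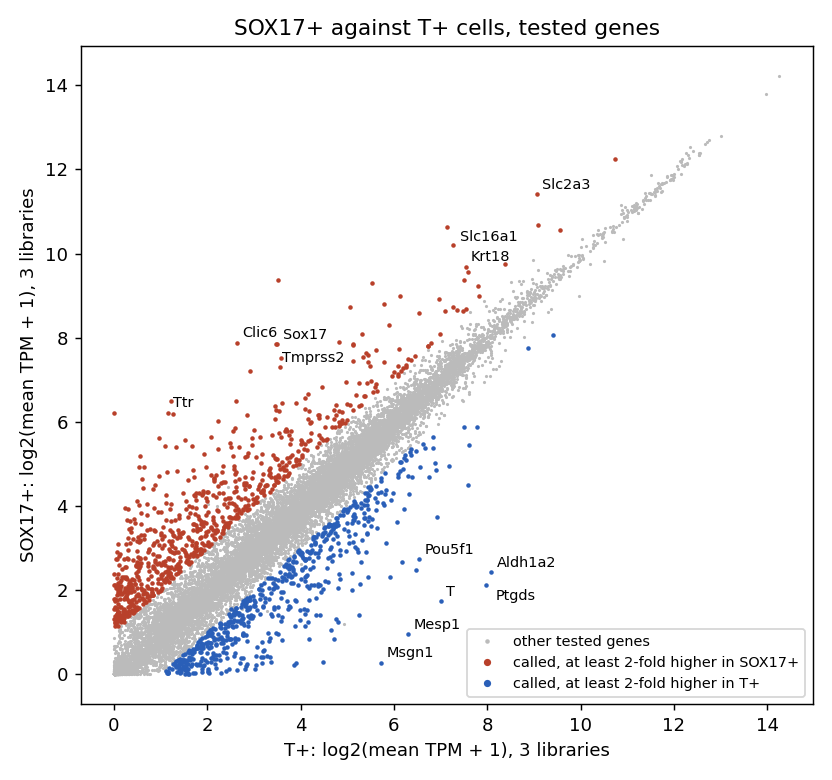
Mean TPM of each of the 16097 tested genes in T+ (horizontal axis) and SOX17+ (vertical axis), 3 libraries each, as log2(mean TPM + 1). Red and blue points are the 797 and 595 genes called and at least 2-fold higher in SOX17+ and in T+, and most genes lie along the diagonal.

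The genes furthest apart on the SOX17+ side were secreted and membrane proteins of absorptive and liver-like epithelia, transcription factors and embryonic globins. Spink1, a secreted trypsin inhibitor, measured 656, 683 and 651 TPM in SOX17+ and 8.63, 9.13 and 13.4 TPM in T+ (log2 difference 5.89 ± 0.13, adjusted p = 4.0e-11). Clic6, a chloride intracellular channel family member, stood at 244, 233 and 226 TPM in SOX17+ and 4.45, 5.47 and 5.69 TPM in T+ (log2 difference 5.25 ± 0.10, adjusted p = 6.6e-13). Ttr, which carries thyroxine and retinol-binding protein, was at 65.8, 82.3 and 72.4 TPM in SOX17+ and 0.735, 1.06 and 1.86 TPM in T+ (log2 difference 5.09 ± 0.15, adjusted p = 2.5e-11). Cpn1, the catalytic subunit of the secreted carboxypeptidase N, measured 75.1, 66.9 and 75.3 TPM in SOX17+ and 1.18, 1.46 and 1.54 TPM in T+ (log2 difference 4.94 ± 0.11, adjusted p = 2.2e-12). In each of these genes the lowest SOX17+ library lay many times above the highest T+ library. The nuclear receptor Hnf4a, a central activator of liver genes, stood at 28.2, 29.4 and 30.8 TPM in SOX17+ and 0.395, 0.644 and 0.627 TPM in T+ (log2 difference 4.29 ± 0.08, adjusted p = 7.7e-13). The membrane proteases Dpp4 and Tmprss2 differed by 4.38 ± 0.11 and 4.37 ± 0.08, the glutathione peroxidase Gpx2 by 4.35 ± 0.21 and the secreted protease Prss12 by 4.08 ± 0.07. The embryonic globin genes Hbb-bh1 and Hba-x were among these 15 largest differences too, with values that spread more widely between SOX17+ libraries. Hbb-bh1 was at 51.9, 75.8 and 141 TPM in SOX17+ and 1.06, 1.64 and 1.31 TPM in T+ (log2 difference 5.16 ± 0.36, adjusted p = 6.0e-07). In sorted bulk samples such as these, fewer cells of a type and less RNA per cell cannot be told apart. The defensin Defa30 was listed at 78.3, 71.8 and 69.9 TPM in SOX17+ and at 0 in every T+ library, so no fold is given. Defensins form a family of near-identical copies, and its value is uncertain for that reason as well.

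On the T+ side the largest differences were in enzymes of lipid signals, in transcription factors of presomitic mesoderm and in NODAL and Notch pathway genes. Ptgds, a prostaglandin D synthase that also binds retinoids, measured 3.85, 3.52 and 2.64 TPM in SOX17+ and 252, 265 and 238 TPM in T+ (log2 difference -5.87 ± 0.13, adjusted p = 1.0e-11). Aldh1a2, the enzyme that makes retinoic acid in early mesoderm, stood at 4.77, 3.61 and 4.78 TPM in SOX17+ and 292, 256 and 262 TPM in T+ (log2 difference -5.66 ± 0.10, adjusted p = 6.1e-13). The bHLH factors Msgn1 and Mesp1, which act in presomitic and nascent mesoderm, come next. Msgn1 was at 0.0624, 0.0528 and 0.524 TPM in SOX17+ and 59.5, 56.9 and 39.1 TPM in T+ (log2 difference -5.44 ± 0.18, adjusted p = 1.7e-10), and Mesp1 measured 1.46, 0.719 and 0.641 TPM in SOX17+ and 88.8, 84.7 and 61.2 TPM in T+ (log2 difference -5.36 ± 0.16, adjusted p = 4.3e-11). No SOX17+ library reached 2 TPM of Msgn1 or Mesp1. Beside T itself (log2 difference -5.25 ± 0.24, adjusted p = 1.4e-08), the NODAL inhibitor Lefty2 differed by -4.18 ± 0.15, the T-box gene Tbx6 by -3.87 ± 0.16, the scavenger receptor Scara3 by -3.82 ± 0.13 and the pluripotency factor Pou5f1 by -3.78 ± 0.11. Dll3, a Notch ligand family member, stood at 4.53 ± 0.366 TPM in SOX17+ and 88.1 ± 11.7 TPM in T+. Others of these 15 were the protocadherin Pcdh19 (-3.64 ± 0.10), Sprr2a2 (-3.64 ± 0.11), whose reads may be split with near-identical neighbours, Doc2g (-3.62 ± 0.16) and the NODAL co-receptor Tdgf1 (-3.57 ± 0.17).

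The promoters of T and of some leading genes in each direction are shown so that their base composition and the letters of known factor motifs can be seen beside the values. Each is the 250 bases before the start given by RefSeq in GRCm38.p6, 5′ to 3′ on the gene's strand, with matches in capitals. The motifs searched were AGATAA for GATA factors, TGTTTAC for forkhead factors, ACAATGG for SOX factors, GGTGTGA for T-box factors, CAGGTG for the E-box known to be bound by SNAIL and ZEB proteins and CTTTGAT for TCF/LEF factors, each on both strands. T lies at chr17:8434173-8434422 on the plus strand, Cpn1 at chr19:43986521-43986770 on the minus strand, Ptgds at chr2:25469750-25469999 on the minus strand and Aldh1a2 at chr9:71215539-71215788 on the plus strand. Defa30 lies at chr8:21134400-21134649 on the plus strand. Sox17 and Spink1 are named only. Clic6, Hbb-bh1 and Ttr, which also differed more than Cpn1, are not printed.
T: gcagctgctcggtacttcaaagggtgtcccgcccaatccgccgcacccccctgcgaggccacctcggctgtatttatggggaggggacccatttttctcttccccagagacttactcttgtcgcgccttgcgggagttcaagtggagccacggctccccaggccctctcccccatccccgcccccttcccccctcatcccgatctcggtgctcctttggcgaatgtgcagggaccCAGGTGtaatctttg
Defa30: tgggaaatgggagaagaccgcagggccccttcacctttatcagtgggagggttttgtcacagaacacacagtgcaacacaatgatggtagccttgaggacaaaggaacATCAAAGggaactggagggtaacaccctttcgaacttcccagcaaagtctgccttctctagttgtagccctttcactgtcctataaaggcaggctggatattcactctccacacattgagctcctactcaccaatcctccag
Cpn1: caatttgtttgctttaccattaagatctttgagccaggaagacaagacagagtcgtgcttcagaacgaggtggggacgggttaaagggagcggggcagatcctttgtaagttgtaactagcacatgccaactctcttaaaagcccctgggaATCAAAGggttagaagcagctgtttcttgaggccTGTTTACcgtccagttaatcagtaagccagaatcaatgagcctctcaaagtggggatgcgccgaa
Ptgds: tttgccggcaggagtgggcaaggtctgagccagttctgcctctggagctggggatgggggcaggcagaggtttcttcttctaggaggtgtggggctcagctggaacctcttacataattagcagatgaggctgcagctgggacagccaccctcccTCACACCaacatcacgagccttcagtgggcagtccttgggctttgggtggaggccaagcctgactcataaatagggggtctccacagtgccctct
Aldh1a2: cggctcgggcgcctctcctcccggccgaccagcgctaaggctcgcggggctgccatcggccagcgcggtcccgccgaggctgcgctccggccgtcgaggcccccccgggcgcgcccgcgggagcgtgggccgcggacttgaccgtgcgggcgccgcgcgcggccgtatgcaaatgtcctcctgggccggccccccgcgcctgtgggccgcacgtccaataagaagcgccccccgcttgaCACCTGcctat
The capitals mark an E-box that starts 15 bases before the start of T, TCF/LEF letters at 142 bases before that of Defa30, TCF/LEF letters at 99 and forkhead letters at 65 bases before that of Cpn1, T-box letters at 95 before that of Ptgds and an E-box at 11 before that of Aldh1a2. The Aldh1a2 window was 77.6% G and C and held 40 CpG pairs, against 47.6% and 7 for Cpn1.

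Among 428 tested transcription factor genes in 17 family lists, 72.4% were called, against 54.5% of all genes, and 29.2% by at least 2-fold, against 8.65% of all genes, with 47 such genes higher in SOX17+ and 78 in T+. The families split unevenly. In the forkhead family 9 of 33 tested members were higher in SOX17+ and 14 in T+, 5 and 7 of them at least 2-fold. All 3 Foxa genes, whose proteins bind compacted chromatin of endodermal enhancers, were higher in SOX17+. Foxa1 stood at 44.7, 38.1 and 44 TPM in SOX17+ and 1.6, 1.43 and 3.52 TPM in T+ (log2 difference 3.82 ± 0.19, adjusted p = 9.2e-09). Foxa3 was at 25.9, 26.4 and 23.9 TPM in SOX17+ and 0.832, 1.04 and 0.956 TPM in T+ (log2 difference 3.76 ± 0.12, adjusted p = 5.0e-11). Foxa2 measured 83.2, 76.9 and 90.5 TPM in SOX17+ and 23, 19.3 and 36.2 TPM in T+ (log2 difference 1.68 ± 0.22, adjusted p = 8.6e-05). The groups did not overlap in any of the 3. T+ cells held far more Foxa2 than Foxa1 or Foxa3 per transcript length. The forkhead genes at least 2-fold higher in T+ were led by Foxc1 (0.78 ± 0.135 TPM in SOX17+ and 17.2 ± 1.89 TPM in T+; difference -3.35 ± 0.09), Foxb1 (-2.78 ± 0.14) and Foxc2 (-2.71 ± 0.23), where the Foxc genes are known from paraxial mesoderm. Foxq1 was higher in SOX17+ (2.42 ± 0.13), and the family's most abundant members, the NODAL pathway partner Foxh1 (-0.72 ± 0.04) and Foxo4 (-0.64 ± 0.05), were lower by less than 2-fold.

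SOX genes went both ways, with 5 of 14 higher in SOX17+ and 8 in T+, 4 each at least 2-fold. Besides Sox17, these were Sox21 (2.01 ± 0.13), Sox18 (1.89 ± 0.12) and, from the endothelium and visceral endoderm lists, Sox7 (6.85 ± 0.94 TPM in SOX17+ and 1.28 ± 0.247 TPM in T+; difference 1.78 ± 0.11), chosen after its values were seen. Sox18 and Sox7 are the other members of the Sox17 subfamily and also act in endothelium. Sox9 (-1.39 ± 0.14), Sox11 (-1.11 ± 0.07), Sox4 (37.8 ± 2.33 TPM in SOX17+ and 80.9 ± 1.8 TPM in T+; difference -1.08 ± 0.05) and the pluripotency and neural factor Sox2 (-1.45 ± 0.13) were higher in T+. Of the T-box genes 4 of 9 were higher in T+, with T and Tbx6 at least 2-fold. Eomes, a T-box gene that is itself required for definitive endoderm, stood at 11.7, 7.98 and 13.2 TPM in SOX17+ and 6.23, 4 and 6.05 TPM in T+ (log2 difference 0.89 ± 0.21, adjusted p = 0.0039). Its groups did not overlap, and it was not counted as at least 2-fold on the log2(TPM + 1) scale, which understates the ratio of low genes. Tbx3 stood at 57.9 ± 3.44 TPM in SOX17+ and 32.6 ± 1.51 TPM in T+ (difference 0.81 ± 0.06).

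All 6 GATA genes were higher in SOX17+, 2 of them at least 2-fold, with a median difference of 0.78 against -0.03 over all genes. The endodermal and cardiac members Gata4 (91.8 ± 5.44 TPM in SOX17+ and 66.2 ± 2.02 TPM in T+; difference 0.47 ± 0.06), Gata6 (75.2 ± 1.58 TPM in SOX17+ and 44.2 ± 4.29 TPM in T+; difference 0.76 ± 0.06) and Gata5 (11.5 ± 1.45 TPM in SOX17+ and 6.14 ± 0.65 TPM in T+; difference 0.81 ± 0.09) were present in both groups and differed by less than 2-fold. Gata1, the erythroid factor, was at 5.88, 8.58 and 10.2 TPM in SOX17+ and 0.189, 0.208 and 0.606 TPM in T+ (log2 difference 2.78 ± 0.17, adjusted p = 2.5e-08), and Gata2, a factor of blood progenitors and vessels, differed by 1.96 ± 0.08. Genes of primitive blood moved with them. Of the 14 tested members of that marker list 13 were higher in SOX17+, 12 at least 2-fold, and the list's summed level was 142 to 307 TPM in SOX17+ libraries against 37.9 to 45.3 TPM in T+. Tal1 (1.85 ± 0.11), Lyl1 (1.76 ± 0.11), Klf1 (2.51 ± 0.13), Gfi1b (2.15 ± 0.14), Ikzf1 (1.83 ± 0.13) and Nfe2 (1.79 ± 0.12), which are haematopoietic factors of other families, were higher in SOX17+ as well. The part of blood cells in these differences was not tested, and no member of the list was at 0 in all 6 libraries. Lmo2, a partner of TAL1, went the other way (log2 difference -0.53 ± 0.11, adjusted p = 0.0011).

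HOX genes were mostly higher in T+: 19 of 28 tested, 11 at least 2-fold, against 3 higher in SOX17+, none at least 2-fold, and the median difference was -0.60. Hoxb1 measured 4.32, 2.86 and 2.36 TPM in SOX17+ and 30.2, 26.3 and 24.1 TPM in T+ (log2 difference -2.76 ± 0.15, adjusted p = 6.5e-09). Hoxd9 stood at 6.4, 6.68 and 7.23 TPM in SOX17+ and 32.7, 28.9 and 22.1 TPM in T+ (log2 difference -1.88 ± 0.12, adjusted p = 3.0e-08). In both genes the lowest T+ library lay more than 3-fold above the highest SOX17+ library. Hoxa3 (-2.90 ± 0.13) and Hoxa2 (-2.62 ± 0.09) were higher in T+ too, and Hoxb5 (0.83 ± 0.11) and Hoxb6 (0.53 ± 0.11) were higher in SOX17+. Summed over the family, HOX transcripts came to 51 to 56 TPM in SOX17+ and 141 to 184 TPM in T+. TALE homeodomain proteins, which bind DNA together with HOX proteins, were listed with further homeobox genes. Of these 21 of 32 were higher in T+, among them Meis2 (8.1 ± 0.811 TPM in SOX17+ and 38.8 ± 3.56 TPM in T+; difference -2.13 ± 0.10), Six2 (-1.66 ± 0.12) and Irx1 (-1.49 ± 0.09), while Hopx (1.67 ± 0.15) was higher in SOX17+.

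Among the other homeobox lists, NK-like and ANTP genes were higher in T+ in 14 of 32 cases and in SOX17+ in 7, where 29% and 25.4% of all genes were. Nkx2-1, a factor of lung and thyroid endoderm, was at 14.3, 15.1 and 13.8 TPM in SOX17+ and 0.15, 0.212 and 0.155 TPM in T+ (log2 difference 3.71 ± 0.10, adjusted p = 1.7e-11). Hhex, which marks anterior endoderm, measured 10.6, 10.8 and 12.3 TPM in SOX17+ and 2.43, 2.79 and 3.23 TPM in T+ (log2 difference 1.68 ± 0.13, adjusted p = 2.5e-07). Neither gene overlapped between the groups. On the T+ side stood the notochord factor Noto (-2.55 ± 0.26), Mnx1 (-2.31 ± 0.20) and Gbx2 (-1.54 ± 0.14). Paired, PRD-like and LIM homeobox genes were higher in T+ in 11 of 20, with Prrx2 (15.3 ± 1.84 TPM in SOX17+ and 54.3 ± 3.54 TPM in T+; difference -1.77 ± 0.08) and Prrx1 (-1.81 ± 0.13), whereas Alx4 (23.9 ± 0.705 TPM in SOX17+ and 3.41 ± 0.683 TPM in T+; difference 2.51 ± 0.09) and the pharyngeal endoderm factor Pax9 (2.14 ± 0.09) were higher in SOX17+.

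Factors known to repress or to maintain epithelial genes were in 1 list, whose largest differences on the T+ side were in repressors. Snai1, a zinc finger repressor of E-cadherin, stood at 11.7, 11.4 and 10.8 TPM in SOX17+ and 70.1, 66.9 and 62.2 TPM in T+ (log2 difference -2.45 ± 0.09, adjusted p = 1.2e-10). The repressors Zeb2 (4.65 ± 1.15 TPM in SOX17+ and 17.4 ± 0.929 TPM in T+; difference -1.72 ± 0.14) and Zeb1 (5.79 ± 0.374 TPM in SOX17+ and 17.1 ± 1.14 TPM in T+; difference -1.41 ± 0.07) were also higher in T+. Among the factors of epithelia, Ovol2, which represses Zeb1, was at 9.39, 10.3 and 10.1 TPM in SOX17+ and 0.61, 0.971 and 0.523 TPM in T+ (log2 difference 2.69 ± 0.12, adjusted p = 7.0e-10). The epithelial splicing regulator Esrp1 measured 53.7, 50.5 and 51.6 TPM in SOX17+ and 10.5, 10.6 and 10.9 TPM in T+ (log2 difference 2.18 ± 0.06, adjusted p = 2.3e-11), and Grhl2, an activator of junction genes, differed by 1.96 ± 0.09. In the whole list 8 of 16 were higher in SOX17+ and 7 in T+. Of further members chosen after their values were seen, Snai2 was also higher in T+ (-0.50 ± 0.10), but Snai3 (0.30 ± 0.09) and Grhl3 (-0.40 ± 0.10) differed slightly and opposite to their nearest relatives. The list median, 0.24, became -0.11 under a stricter filter, so it has no stable sign.

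Mesodermal bHLH, HES, HEY and ID genes were higher in T+ in 15 of 32, 10 at least 2-fold. Mesp2 (-2.67 ± 0.08) stood with Mesp1 and Msgn1, and Hand1, a factor of lateral mesoderm, was the most abundant of the list. Hand1 stood at 249, 281 and 264 TPM in SOX17+ and 678, 730.3 and 642 TPM in T+ (log2 difference -1.36 ± 0.07, adjusted p = 3.6e-09), so it was abundant in both groups. Among the other zinc fingers, Osr1 (-2.94 ± 0.12) and the hedgehog effector Gli1 (-2.66 ± 0.12) were higher in T+, while Prdm1 (18.8 ± 1.68 TPM in SOX17+ and 4.08 ± 0.0928 TPM in T+; difference 1.96 ± 0.10) was higher in SOX17+. The WNT effectors of the TCF/LEF family diverged. Lef1 was at 20.3, 18 and 17 TPM in SOX17+ and 84.5, 78.8 and 73.3 TPM in T+ (log2 difference -2.04 ± 0.08, adjusted p = 1.6e-10), whereas Tcf7l2 measured 26.9, 21.9 and 25.5 TPM in SOX17+ and 11.1, 10.6 and 9.41 TPM in T+ (log2 difference 1.18 ± 0.09, adjusted p = 1.1e-07). Neither overlapped between the groups. ETS genes were higher in SOX17+ in 8 of 21 and in T+ in 5, led by the endothelial factor Erg (2.09 ± 0.10), the epithelial factors Elf3 (1.44 ± 0.08) and Spdef (1.44 ± 0.12) on one side and by Etv1 (-2.48 ± 0.14) on the other. Of 28 nuclear receptors 3 were at least 2-fold higher in SOX17+ and 1 in T+. Of 23 KLF and SP factors 2 and 2 were, against 4.95% and 3.7% of all genes. Rarb, a retinoic acid receptor, was higher in SOX17+ (3.43 ± 0.49 TPM in SOX17+ and 0.499 ± 0.132 TPM in T+; difference 1.56 ± 0.13).

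**Figure D2:**
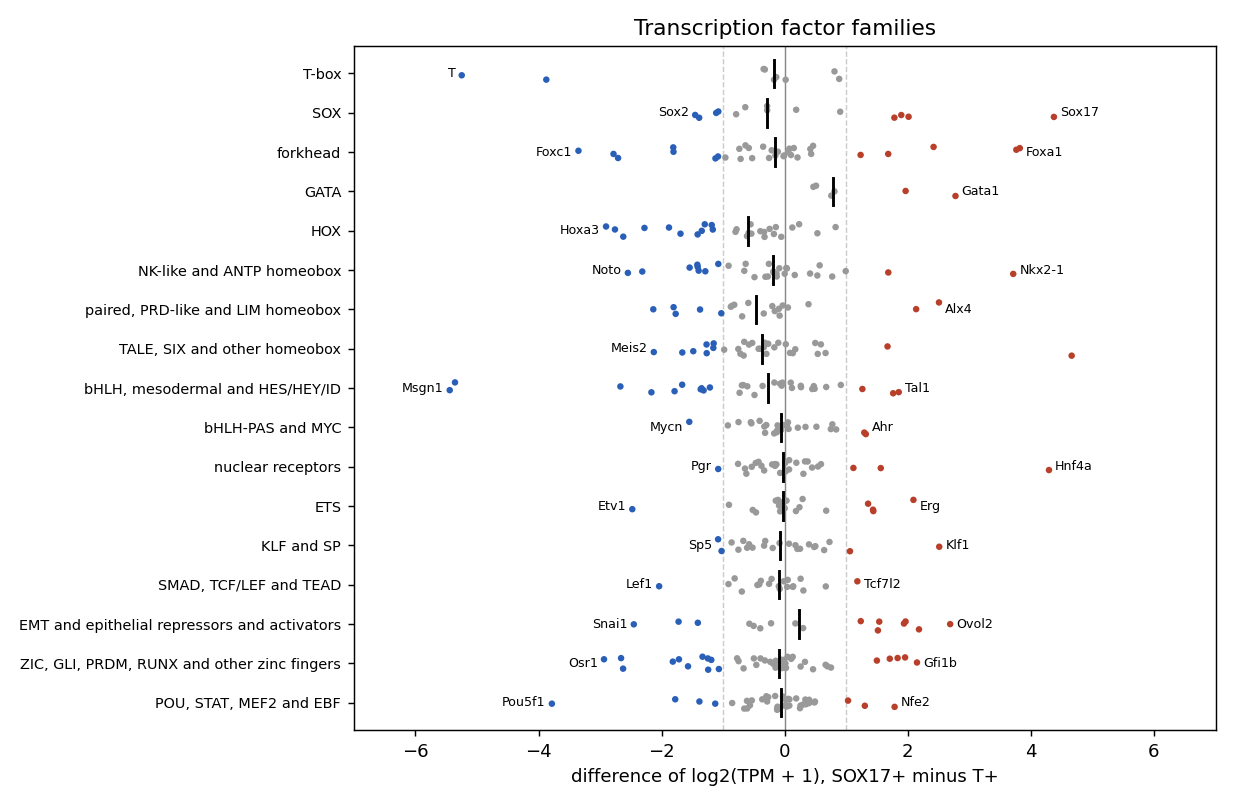
Difference of log2(TPM + 1), SOX17+ minus T+, of each tested transcription factor gene by family. Red and blue points were called and at least 2-fold higher in SOX17+ or T+, grey points were not, black bars are family medians, and dashed lines mark 2-fold. The GATA points all lie right of 0 and most HOX points left of it.

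Of 291 tested surface protein genes 79.7% were called and 40.2% by at least 2-fold, 75 of them higher in SOX17+ and 42 in T+. Junction and epithelial antigen genes made up much of the SOX17+ side. Claudins and tight junction genes were higher in SOX17+ in 19 of 28 cases, 14 at least 2-fold, with a median difference of 1.01. Cldn7 stood at 180.3, 181 and 185 TPM in SOX17+ and 10.1, 11 and 11.8 TPM in T+ (log2 difference 3.93 ± 0.07, adjusted p = 6.6e-13). Crb3, a small apical polarity protein, was at 90.9, 89.3 and 86.5 TPM in SOX17+ and 4.41, 4.88 and 6.06 TPM in T+ (log2 difference 3.89 ± 0.11, adjusted p = 2.3e-11). Cldn6, a claudin of embryonic epithelia, measured 463, 424 and 446 TPM in SOX17+ and 49.2, 49.2 and 65 TPM in T+ (log2 difference 3.02 ± 0.09, adjusted p = 1.6e-10). Cldn6 was well above 0 in T+ cells too, but the groups did not overlap. Jam3 (-1.42 ± 0.08), Crb2 (28.4 ± 0.575 TPM in SOX17+ and 72.7 ± 5.57 TPM in T+; difference -1.33 ± 0.06) and Jam2 (-0.91 ± 0.09) were higher in T+, so a pair of Crumbs genes differed in opposite directions.

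No desmosome or keratin gene was higher in T+, and 11 of 15 were higher in SOX17+, 7 at least 2-fold. Krt18 stood at 843, 801 and 825 TPM in SOX17+ and 158, 200.1 and 196 TPM in T+ (log2 difference 2.16 ± 0.08, adjusted p = 4.4e-10), and its partner Krt8, which pairs with it in simple epithelial filaments, was at 683, 653 and 650.0 TPM in SOX17+ and 149.6, 201 and 189.8 TPM in T+ (log2 difference 1.88 ± 0.09, adjusted p = 6.7e-09). Krt7 differed by 2.25 ± 0.14 from a low level. Epithelial surface antigens and proteases had the highest median of the surface lists, 1.89, with 22 of 25 higher in SOX17+. Besides Dpp4 and Tmprss2, the aminopeptidase Enpep measured 14.4, 13.9 and 14.1 TPM in SOX17+ and 0.145, 0.22 and 0.33 TPM in T+ (log2 difference 3.62 ± 0.13, adjusted p = 9.1e-11). The most abundant members differed by less, Cd24a by 0.21 ± 0.04 and Podxl by 0.95 ± 0.06. Another aminopeptidase, Anpep, went the other way (8.69 ± 0.389 TPM in SOX17+ and 31.9 ± 4.49 TPM in T+; difference -1.76 ± 0.09).

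Cadherins did not move as a family, with 10 of 27 higher in SOX17+ and 14 in T+, 6 and 10 at least 2-fold. Cdh1 (E-cadherin) stood at 176, 157 and 190.5 TPM in SOX17+ and 32.7, 31.2 and 37.5 TPM in T+ (log2 difference 2.33 ± 0.08, adjusted p = 7.5e-11). Cdh2 (N-cadherin), chosen after its values were seen, was at 36.5, 29.9 and 36.5 TPM in SOX17+ and 75.7, 71.4 and 74.6 TPM in T+ (log2 difference -1.09 ± 0.10, adjusted p = 7.8e-07). SOX17+ cells held more Cdh1 than Cdh2 and T+ cells more Cdh2 than Cdh1, per transcript length. Cdh6 measured 29.3, 25.5 and 28.2 TPM in SOX17+ and 1.55, 1.62 and 1.52 TPM in T+ (log2 difference 3.48 ± 0.10, adjusted p = 2.1e-11), and Pcdh1 (3.14 ± 0.11) and the endothelial Cdh5 (15.5 ± 1.77 TPM in SOX17+ and 0.643 ± 0.137 TPM in T+; difference 3.33 ± 0.10) were higher in SOX17+ too. Pcdh19, Cdh4 (-2.08 ± 0.09) and Clstn2 (-1.73 ± 0.13) were higher in T+. Of the integrins, Itga2b (8.54 ± 1.37 TPM in SOX17+ and 0.428 ± 0.0772 TPM in T+; difference 2.73 ± 0.11), which is also in the blood list, Itga3 (1.61 ± 0.07) and Itgb4 (1.35 ± 0.08) were higher in SOX17+ and Itgb8 (-1.84 ± 0.10) and Itga8 (-1.82 ± 0.09) in T+. The abundant subunit Itgb1 differed by 0.35 ± 0.04.

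The E-box CAGGTG, which reads CACCTG on the other strand, was the motif whose share differed by the most percentage points between the promoters of the groups, while the GATA letters differed by a larger ratio. The window searched ran from 250 bases before to 50 after the start. It held the E-box in 196 of 589 promoters (33.3%) of genes at least 2-fold higher in SOX17+, in 71 of 411 (17.3%) of those higher in T+, in 1898 of 10680 (17.8%) of all tested genes and in 19.9% of all 27025 promoters in the table. From genes at least 4-fold higher in SOX17+ to those not called, the share ran 38.7%, 31.0%, 21.3% (called, under 2-fold) and 17.2%. On the T+ side it was 12.5% under 2-fold, 15.5% at 2- to 4-fold and 25.3% in the 75 promoters at least 4-fold higher. Other E-boxes, searched after these shares were seen, were CAGCTG (17.0% of the SOX17+ promoters and 19.7% of the T+ promoters), CACGTG (8.15% and 5.84%) and CATATG (1.36% and 0.973%). The other motifs were less frequent, with GATA letters in 7.98% and 3.89%, forkhead in 3.74% and 1.95%, SOX in 2.55% and 1.70%, T-box in 4.58% and 3.89% and TCF/LEF in 2.38% and 3.65%. Median G and C content was 61% and 62.3%. Only 589 of 797 and 411 of 595 genes had a promoter in the table, so the shares describe these promoters and are void as a statement about all such genes. The T-box and E-box letters can overlap, since GGTG is in both. A match describes letters and shows no binding.

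The windows of 6 epithelial genes are printed because junction and keratin promoters held the E-box often: 7 of 10 matched promoters of the claudin and tight junction genes at least 2-fold higher in SOX17+, 3 of 3 of the desmosome and keratin genes and 7 of 15 of the epithelial antigens. Cldn6 is counted in both the first and the last of these lists. These genes were chosen after the shares were seen, and only from those with the E-box before the start. Its presence in every window printed was thus fixed by the choice. Each window is the 250 bases before the RefSeq start in GRCm38.p6, with the E-box in capitals. Crb3 lies at chr17:57061951-57062200 (plus strand), Cldn6 at chr17:23679115-23679364 (plus), Krt7 at chr15:101412153-101412402 (plus), Krt18 at chr15:102027966-102028215 (plus), Cdcp1 at chr9:123216039-123216288 (minus) and Epcam at chr17:87635729-87635978 (plus).
Crb3: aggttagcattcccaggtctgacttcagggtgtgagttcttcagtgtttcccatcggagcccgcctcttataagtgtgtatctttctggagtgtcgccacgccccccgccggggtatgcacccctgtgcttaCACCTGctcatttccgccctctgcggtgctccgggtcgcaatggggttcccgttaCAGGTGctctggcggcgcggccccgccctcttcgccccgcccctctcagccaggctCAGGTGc
Cldn6: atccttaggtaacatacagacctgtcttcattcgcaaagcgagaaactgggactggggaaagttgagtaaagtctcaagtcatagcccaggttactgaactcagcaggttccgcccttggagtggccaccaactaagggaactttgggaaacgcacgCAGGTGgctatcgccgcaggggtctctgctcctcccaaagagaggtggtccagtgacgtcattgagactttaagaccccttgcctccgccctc
Krt7: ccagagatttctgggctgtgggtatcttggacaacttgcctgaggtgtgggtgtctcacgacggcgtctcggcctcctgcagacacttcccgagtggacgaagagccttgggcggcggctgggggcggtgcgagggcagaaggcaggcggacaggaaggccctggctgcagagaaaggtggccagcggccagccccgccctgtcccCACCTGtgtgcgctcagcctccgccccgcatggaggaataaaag
Krt18: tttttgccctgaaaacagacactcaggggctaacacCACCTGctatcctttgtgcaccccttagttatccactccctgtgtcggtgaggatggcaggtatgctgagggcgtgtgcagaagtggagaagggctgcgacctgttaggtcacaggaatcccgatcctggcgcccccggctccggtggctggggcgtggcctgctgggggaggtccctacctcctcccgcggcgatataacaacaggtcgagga
Cdcp1: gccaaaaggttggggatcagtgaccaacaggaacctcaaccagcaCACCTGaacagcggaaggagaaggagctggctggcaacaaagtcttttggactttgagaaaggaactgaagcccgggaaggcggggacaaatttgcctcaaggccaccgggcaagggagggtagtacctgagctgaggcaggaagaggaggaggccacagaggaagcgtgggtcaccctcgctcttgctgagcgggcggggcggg
Epcam: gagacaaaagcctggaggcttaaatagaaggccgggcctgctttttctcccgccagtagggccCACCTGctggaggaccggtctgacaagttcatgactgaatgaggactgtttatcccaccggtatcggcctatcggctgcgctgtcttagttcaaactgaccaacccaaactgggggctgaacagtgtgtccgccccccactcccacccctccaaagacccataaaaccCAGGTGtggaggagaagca
The Crb3 window held 3 E-boxes, starting 118, 63 and 7 bases before the start, and the Epcam window 2, at 187 and 19. Those of Cldn6 and Krt7 lay at 93 and 44 bases, and those of Krt18 and Cdcp1 further out, at 214 and 205. Cdcp1, a membrane glycoprotein, stood at 14.3, 12.2 and 13.6 TPM in SOX17+ and 0.93, 0.906 and 0.951 TPM in T+ (log2 difference 2.90 ± 0.09, adjusted p = 2.6e-11), and the adhesion molecule Epcam was at 234, 218 and 233 TPM in SOX17+ and 32.1, 33 and 35.8 TPM in T+ (log2 difference 2.73 ± 0.05, adjusted p = 6.6e-13). The promoters of T and Aldh1a2, genes higher in T+, held the same letters, as printed above.

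Receptor genes separated the populations in several signalling pathways. Of the receptor tyrosine kinases 11 of 31 were higher in SOX17+ and 13 in T+, 8 and 3 at least 2-fold. Fgfr4, an FGF receptor of endoderm and liver, measured 24.3, 25.4 and 21.9 TPM in SOX17+ and 0.423, 0.563 and 0.559 TPM in T+ (log2 difference 4.04 ± 0.10, adjusted p = 7.8e-12). Pdgfra, a receptor of early mesoderm, stood at 10.1, 9 and 8.78 TPM in SOX17+ and 43.2, 47 and 35.2 TPM in T+ (log2 difference -2.05 ± 0.10, adjusted p = 2.0e-09). The groups did not overlap in either. The VEGF receptor Flt1 (86.7 ± 9.5 TPM in SOX17+ and 11.2 ± 0.813 TPM in T+; difference 2.84 ± 0.10) and the endothelial receptor Tie1 (3.25 ± 0.12) were higher in SOX17+, but the VEGF receptor Kdr was higher in T+ (18.6 ± 2.26 TPM in SOX17+ and 27.9 ± 1.42 TPM in T+; difference -0.57 ± 0.09). Endothelial genes as a list were higher in SOX17+ in 11 of 14 members and in T+ in 2. Their summed level was 137 to 152 TPM in SOX17+ against 73.7 to 80.9 TPM in T+. Besides Cdh5, Tie1 and Erg, those higher in SOX17+ included Esam (2.72 ± 0.10). Etv2 of this list was higher in T+ (-0.52 ± 0.14), and Egfl7 stood at 34.9 ± 4.22 TPM in SOX17+ and 34.6 ± 0.841 TPM in T+. No member was at 0 in all 6 libraries. The part of endothelial cells in the rises of Cdh5, Tie1, Erg, Sox7 and Sox18 was not tested.

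Notch genes were higher in T+ in 7 of 10. Dll1 was at 1.74, 1.5 and 1.74 TPM in SOX17+ and 21.9, 16.7 and 22.4 TPM in T+ (log2 difference -2.99 ± 0.10, adjusted p = 7.8e-11), and Notch1 measured 7.62, 6.51 and 6.36 TPM in SOX17+ and 36.6, 32.2 and 39.3 TPM in T+ (log2 difference -2.24 ± 0.09, adjusted p = 3.0e-10). The atypical ligand Dlk1 (189.9 ± 11 TPM in SOX17+ and 86.4 ± 9 TPM in T+; difference 1.13 ± 0.11) and Jag2 (1.15 ± 0.11) were higher in SOX17+. Of the TGF-beta family receptors and co-receptors, none was at least 2-fold higher in SOX17+, and in T+ the NODAL co-receptor Tdgf1 stood at 1.58, 0.97 and 1.54 TPM in SOX17+ and 28.7, 23.7 and 28.6 TPM in T+ (log2 difference -3.57 ± 0.17, adjusted p = 8.7e-09). Its paralog Cfc1, also a NODAL co-receptor, was abundant in both groups (159 ± 13.1 TPM in SOX17+ and 303 ± 16.4 TPM in T+; difference -0.93 ± 0.07). WNT and hedgehog receptors were higher in T+ in 14 of 27, among them Ptch1 (28 ± 3.46 TPM in SOX17+ and 119 ± 19.4 TPM in T+; difference -2.04 ± 0.15) and Fzd10 (-1.72 ± 0.08). On the SOX17+ side stood Rnf43 (17.3 ± 1.86 TPM in SOX17+ and 4.48 ± 0.264 TPM in T+; difference 1.74 ± 0.08), which removes WNT receptors from the membrane, and the R-spondin receptor Lgr5 (7.43 ± 1.17 TPM in SOX17+ and 1.94 ± 0.357 TPM in T+; difference 1.52 ± 0.16).

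Receptors of migration and guidance also differed. Aplnr, the receptor of apelin and of Apela (also called Toddler), was at 25.7, 25.4 and 22.8 TPM in SOX17+ and 114, 99.7 and 108 TPM in T+ (log2 difference -2.07 ± 0.06, adjusted p = 2.0e-11). The lysophosphatidic acid receptor Lpar1 measured 85.4, 76.4 and 83 TPM in SOX17+ and 9.39, 10.7 and 9.87 TPM in T+ (log2 difference 2.91 ± 0.08, adjusted p = 1.5e-11), and the adhesion receptor Adgrg1 was higher in SOX17+ as well (2.53 ± 0.16). Lpar1 was high in every SOX17+ library and Aplnr in every T+ library. The sphingosine phosphate receptor S1pr5 (-2.34 ± 0.08) and Ackr3, which binds CXCL12, (-1.56 ± 0.11) were higher in T+. Cxcr4, the other CXCL12 receptor and a usual endoderm sorting marker, was also higher in T+ (37.2 ± 4.69 TPM in SOX17+ and 65.1 ± 4.22 TPM in T+; difference -0.79 ± 0.18), and the ligand Cxcl12 was higher in SOX17+ (8.43 ± 1.23 TPM in SOX17+ and 2.59 ± 0.246 TPM in T+; difference 1.39 ± 0.13). The neuropilins split, with Nrp1 at 141 ± 6.32 TPM in SOX17+ and 67 ± 2.53 TPM in T+ (difference 1.06 ± 0.05) and Nrp2 at 10.5 ± 0.6 TPM in SOX17+ and 44.3 ± 1.98 TPM in T+ (difference -1.98 ± 0.06). Unc5c (-1.69 ± 0.08) and Plxna2 (-1.78 ± 0.10) were higher in T+, and Flrt3 (54.3 ± 3.83 TPM in SOX17+ and 11.6 ± 2.95 TPM in T+; difference 2.15 ± 0.13) in SOX17+. Ephrins and their receptors were even in number, 6 higher in each group, with Efnb3 (-1.67 ± 0.06) the largest difference. Endocytic receptors were higher in SOX17+ in 11 of 21, among them Sorl1 (2.37 ± 0.07), Sorcs2 (1.98 ± 0.11) and the cubilin partner Amn (1.72 ± 0.09), while Lrp1 (-1.28 ± 0.09) and Scara3 were higher in T+.

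Of 170 tested ligand and antagonist genes 68.8% were called and 32.9% by at least 2-fold, 20 of them higher in SOX17+ and 36 in T+. WNT ligands and R-spondins were at least 2-fold higher in T+ in 6 of 14 cases and in SOX17+ in 1. Rspo3, which strengthens WNT signals, stood at 4.98, 5.51 and 5.61 TPM in SOX17+ and 75.6, 69 and 67.4 TPM in T+ (log2 difference -3.49 ± 0.09, adjusted p = 4.9e-12). Wnt3 was at 3.81, 2.84 and 3.46 TPM in SOX17+ and 19, 17.8 and 16.3 TPM in T+ (log2 difference -2.10 ± 0.09, adjusted p = 4.4e-10), and Wnt5a stood at 9.17 ± 0.923 TPM in SOX17+ and 35.1 ± 3.5 TPM in T+ (difference -1.83 ± 0.10). All 3 were higher in every T+ library. WNT antagonists split by member. Wif1 measured 16.2, 14.5 and 13.9 TPM in SOX17+ and 1.78, 1.91 and 2.88 TPM in T+ (log2 difference 2.33 ± 0.12, adjusted p = 3.0e-09), and Dkk1 stood at 136, 130.1 and 138 TPM in SOX17+ and 57.4, 52 and 73.2 TPM in T+ (log2 difference 1.15 ± 0.13, adjusted p = 1.2e-05). Sfrp1 (3.35 ± 0.875 TPM in SOX17+ and 20.4 ± 1.01 TPM in T+; difference -2.32 ± 0.15) and Sfrp2 (-1.02 ± 0.06) were higher in T+. Altogether 4 of 14 antagonists were higher in SOX17+ and 5 in T+, or 3 in T+ without SOX17+ replicate 2 or T+ replicate 2.

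FGF ligands were higher in T+ in 9 of 15. Fgf8, which drives cells out of the streak, was at 13.1, 7.82 and 16.2 TPM in SOX17+ and 138, 122 and 100.1 TPM in T+ (log2 difference -3.22 ± 0.22, adjusted p = 4.8e-07). Fgf15 differed by -1.40 ± 0.12 and Fgf18 by -1.76 ± 0.18. Of the BMP, GDF, NODAL and TGF-beta ligands 13 of 22 were higher in T+, 6 at least 2-fold. Bmp4 measured 43.2, 44.5 and 39.8 TPM in SOX17+ and 193, 201 and 190.5 TPM in T+ (log2 difference -2.17 ± 0.04, adjusted p = 1.1e-12). Lefty2 stood at 0.233, 0.158 and 0.284 TPM in SOX17+ and 22.3, 17.1 and 24.7 TPM in T+ (log2 difference -4.18 ± 0.15, adjusted p = 1.7e-10), and Lefty1 was higher in T+ as well (-2.93 ± 0.19). Nodal itself, chosen after its values were seen, was at 3.8, 2.44 and 4.26 TPM in SOX17+ and 13.8, 11.2 and 13.5 TPM in T+ (log2 difference -1.64 ± 0.16, adjusted p = 3.9e-06). The ligand, its co-receptor Tdgf1 and its inhibitors Lefty1 and Lefty2 were thus higher in T+ together. Only Bmp6 (0.69 ± 0.08) and Inha (0.31 ± 0.10) of this list were called higher in SOX17+, and Inha was not called without SOX17+ replicate 1 or 2 or T+ replicate 1 or 2. BMP and activin antagonists were higher in T+ in 11 of 18, led by Nog (5.48 ± 0.587 TPM in SOX17+ and 24.6 ± 5.52 TPM in T+; difference -1.96 ± 0.16), Fstl4 (-1.42 ± 0.08) and Fst (-1.35 ± 0.08).

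Hedgehog ligands differed in opposite directions. Ihh measured 21.6, 19.2 and 20.7 TPM in SOX17+ and 0.361, 0.6 and 0.635 TPM in T+ (log2 difference 3.81 ± 0.09, adjusted p = 3.1e-12), whereas Shh stood at 8.25, 5.4 and 8.06 TPM in SOX17+ and 14.1, 13.7 and 33.5 TPM in T+ (log2 difference -1.28 ± 0.34, adjusted p = 0.0099). Neither gene overlapped between the groups, although T+ replicate 3 held more Shh than the other T+ libraries. Ptch1 and Gli1, which are transcribed in response to hedgehog signals, were both higher in T+, as given above.

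Several ligands of the apelin, KIT, EGF and IGF receptors were higher in SOX17+. Apela was at 528, 504 and 487 TPM in SOX17+ and 61.8, 77.2 and 69 TPM in T+ (log2 difference 2.86 ± 0.08, adjusted p = 5.6e-11). Its receptor Aplnr was higher in T+, so ligand and receptor transcripts were higher in different groups. Apln, the other ligand of that receptor, was higher in T+ (-1.11 ± 0.15). Kitl, the ligand of KIT, measured 70.3, 60.2 and 66.7 TPM in SOX17+ and 10.1, 9.96 and 9.8 TPM in T+ (log2 difference 2.61 ± 0.06, adjusted p = 2.2e-12). Kit itself stood at 45.1, 43.6 and 49.8 TPM in SOX17+ and 18, 17.6 and 16.8 TPM in T+ (log2 difference 1.35 ± 0.07, adjusted p = 2.1e-09), so both transcripts were higher in SOX17+. EGF family and IGF genes were higher in SOX17+ in 10 of 18, 8 at least 2-fold. Tgfa was at 24.2, 22.2 and 24.3 TPM in SOX17+ and 2.1, 1.84 and 2.04 TPM in T+ (log2 difference 3.04 ± 0.07, adjusted p = 2.2e-12). Igf2, a fetal growth factor and the most abundant ligand of the list, measured 1454, 1508 and 1563 TPM in SOX17+ and 697, 770.1 and 780.1 TPM in T+ (log2 difference 1.01 ± 0.05, adjusted p = 5.5e-09). IGF-binding proteins divided, with Igfbp5 (2.77 ± 0.20) and Igfbp2 (600.4 ± 37.7 TPM in SOX17+ and 221 ± 9.71 TPM in T+; difference 1.44 ± 0.05) higher in SOX17+ and Igfbp3 (-3.08 ± 0.16) and Igfbp4 (57.7 ± 3.45 TPM in SOX17+ and 181 ± 4.46 TPM in T+; difference -1.63 ± 0.06) higher in T+. Igf1r, the receptor of the IGF ligands, was higher in T+ as well (-1.35 ± 0.08). Mdk, a heparin-binding growth factor, was abundant in both (907 ± 31.3 TPM in SOX17+ and 1445 ± 54.5 TPM in T+; difference -0.67 ± 0.04). Of the guidance cues Reln (34.7 ± 1.99 TPM in SOX17+ and 6.04 ± 0.675 TPM in T+; difference 2.35 ± 0.08) was higher in SOX17+, and Slit2 (-1.71 ± 0.18), Slit3 (-1.51 ± 0.08) and Sema3e (-1.80 ± 0.11) were higher in T+.

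**Figure D3:**
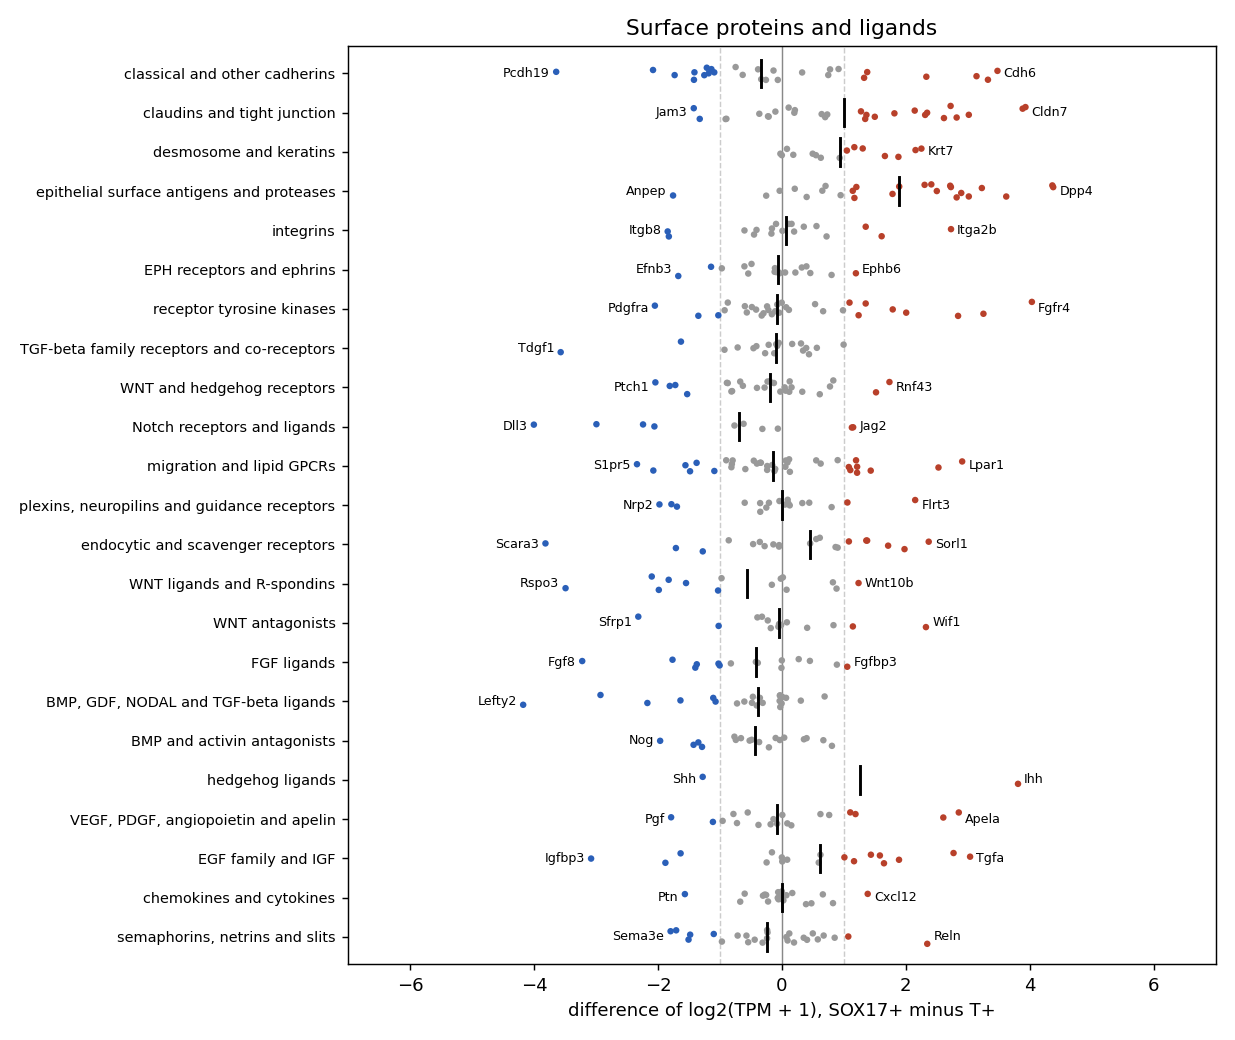
Difference of log2(TPM + 1), SOX17+ minus T+, of each tested gene of the surface protein and ligand lists. Red and blue points were called and at least 2-fold higher in SOX17+ or T+, grey points were not, black bars are list medians and dashed lines mark 2-fold. The bar of the epithelial surface antigens lies furthest to the right.

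Metabolic genes differed less than the other groups: of 526 tested, 65.2% were called but 12.7% by at least 2-fold, 38 higher in SOX17+ and 29 in T+, and the median absolute difference was 0.24. Of the glycolysis and lactate list 8 of 33 were higher in SOX17+ and 12 in T+, where 25.4% and 29% of all genes were, with a median of 0.04. Without SOX17+ replicate 3, T+ replicate 1 or T+ replicate 2 the count higher in T+ was 7, and it was 8 with no filter on low values or with neither trend nor robust fitting. Slc2a3, a high-affinity glucose transporter, stood at 2859, 2844 and 2505 TPM in SOX17+ and 571, 592 and 433 TPM in T+ (log2 difference 2.37 ± 0.15, adjusted p = 9.5e-07). Slc16a1, which carries lactate and other monocarboxylates, was at 1217, 1153 and 1177 TPM in SOX17+ and 149, 153 and 157 TPM in T+ (log2 difference 2.94 ± 0.05, adjusted p = 5.5e-13). The most abundant glycolytic enzymes were not called and overlapped between the groups, Gapdh at 4703 ± 325 TPM in SOX17+ and 4560.0 ± 291 TPM in T+ (difference 0.04 ± 0.07) and Ldha at 4740.4 ± 286 TPM in SOX17+ and 4489 ± 319 TPM in T+ (difference 0.08 ± 0.06). Pfkfb3, which makes an activator of phosphofructokinase, was higher in T+ (17.8 ± 3.17 TPM in SOX17+ and 42.2 ± 5.3 TPM in T+; difference -1.21 ± 0.14), as were Slc2a4 (-1.22 ± 0.09) and Pgam2 (-1.11 ± 0.12). Further genes were chosen after their values were seen. The glucose transporter Slc2a1 measured 1754, 1740.0 and 1418 TPM in SOX17+ and 584, 567 and 489 TPM in T+ (log2 difference 1.58 ± 0.12, adjusted p = 1.5e-06). The lactate exporter Slc16a3 differed by 0.60 ± 0.13, Pkm by -0.14 ± 0.05 with overlapping groups, and Ldhb by -0.95 ± 0.04.

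**Figure D4:**
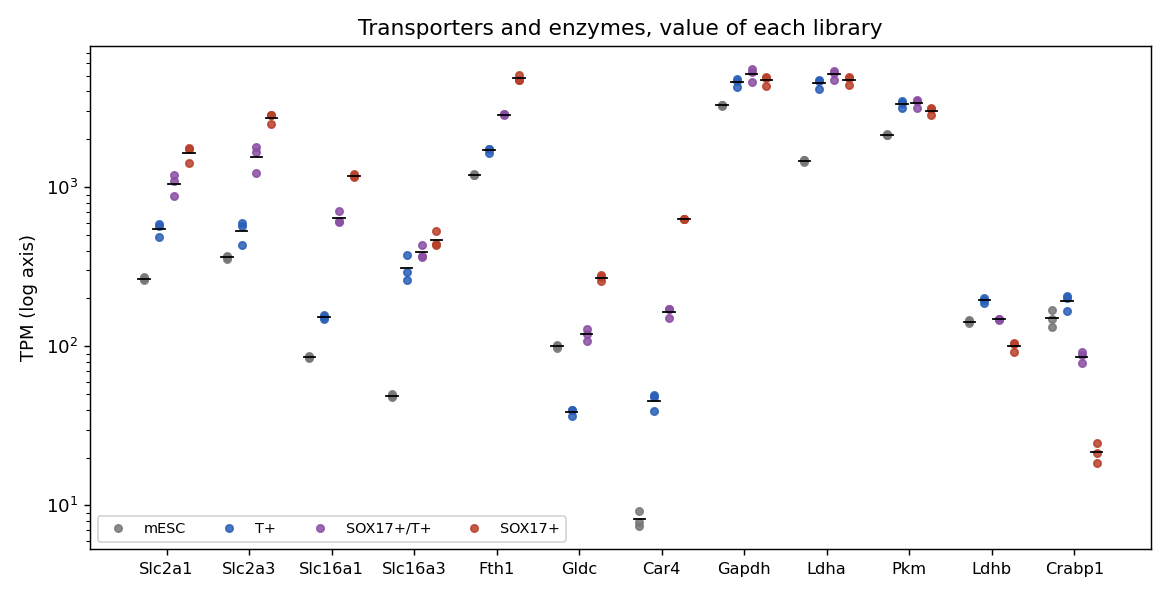
TPM of each library (points, log axis) and group mean (bars) for 12 transporters, enzymes and carriers in mESC, T+, SOX17+/T+ and SOX17+, some of them chosen for their values. SOX17+ libraries lie highest for Slc2a1, Slc2a3, Slc16a1, Fth1, Gldc and Car4, while Gapdh and Ldha overlap between T+ and SOX17+.

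Mitochondrial genes differed little. Nuclear-encoded respiratory chain genes had a median of -0.01, with 14 of 79 higher in SOX17+ and 21 in T+, or 8 and 38 with quantile normalization. The exceptions at least 2-fold apart were isoform genes. Cox4i2 (27.7 ± 1.9 TPM in SOX17+ and 68.7 ± 6.93 TPM in T+; difference -1.28 ± 0.11) and Ndufa4l2 (32.3 ± 9.17 TPM in SOX17+ and 69.9 ± 14.6 TPM in T+; difference -1.11 ± 0.23), both known to respond to low oxygen, were higher in T+, and Cox7a1 (1.15 ± 0.09) in SOX17+. No mitochondrially encoded gene was higher in SOX17+, and 4 of 13 were higher in T+ by small amounts, but only 1 of them with scaling by median of ratios and 2 after quantile normalization. No TCA cycle gene reached 2-fold, and the largest difference, 0.51 ± 0.07, was in the malic enzyme Me2. Fatty acid oxidation genes were higher in T+ in 13 of 26, 2 at least 2-fold, the ketone-using enzyme Oxct1 (11.2 ± 0.738 TPM in SOX17+ and 30.9 ± 0.777 TPM in T+; difference -1.39 ± 0.05) and the muscle-type carnitine transferase Cpt1b (-1.38 ± 0.10).

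Cholesterol genes formed the metabolic list with the most one-sided direction, 20 of 24 higher in SOX17+ against 1 in T+, with a median of 0.54. Most of these differences were under 2-fold, as in Fdps (401 ± 18.2 TPM in SOX17+ and 277 ± 24.8 TPM in T+; difference 0.53 ± 0.08) and Ebp (48.3 ± 0.0597 TPM in SOX17+ and 25.2 ± 0.356 TPM in T+; difference 0.91 ± 0.04). 2 members were at least 2-fold higher in SOX17+, among them Insig1. Insig1, which holds back sterol synthesis, stood at 215, 216 and 236 TPM in SOX17+ and 103, 100.5 and 109.9 TPM in T+ (log2 difference 1.08 ± 0.07, adjusted p = 1.5e-08). Srebf2, the transcription factor of the pathway, stood at 212 ± 4.8 TPM in SOX17+ and 202 ± 5.67 TPM in T+ and was not called. Fatty acid synthesis and lipid droplet genes were higher in SOX17+ in 18 of 33, 4 at least 2-fold, led by the elongase Elovl7 (2.08 ± 0.11), Dgat2 (1.25 ± 0.12) and Agpat3 (1.18 ± 0.08). Among lipid carriers, Apom (9.98 ± 0.659 TPM in SOX17+ and 0.249 ± 0.0505 TPM in T+; difference 3.14 ± 0.13) and Apoe (917 ± 25.6 TPM in SOX17+ and 501 ± 51 TPM in T+; difference 0.88 ± 0.08) were higher in SOX17+ and the fatty acid binding proteins Fabp7 (-2.36 ± 0.10) and Fabp3 (-1.26 ± 0.13) in T+.

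The retinoid genes with large differences lay on the T+ side. None of 21 was at least 2-fold higher in SOX17+ and 5 were in T+. Crabp1, which binds retinoic acid in the cytoplasm, was at 24.7, 21.4 and 18.4 TPM in SOX17+ and 201, 207 and 166 TPM in T+ (log2 difference -3.10 ± 0.12, adjusted p = 2.4e-09). Crabp2 measured 2.02, 2.78 and 3.79 TPM in SOX17+ and 23, 23.4 and 15.6 TPM in T+ (log2 difference -2.49 ± 0.18, adjusted p = 2.6e-07). With Aldh1a2 they place both the synthesis step and its cytoplasmic carriers higher in T+. Rbp4, which exports retinol and is carried by Ttr in plasma, was higher in SOX17+ by less than 2-fold (10.1 ± 1.82 TPM in SOX17+ and 5.18 ± 0.853 TPM in T+; difference 0.84 ± 0.13).

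Of 28 genes in the serine, glycine and one-carbon list 2 were at least 2-fold higher in SOX17+ and 2 in T+. In the other amino acid list these were 2 and 3 of 32, where 4.95% and 3.7% of all genes were. Gldc, the glycine decarboxylase of the mitochondrial glycine cleavage system, stood at 274, 257 and 281 TPM in SOX17+ and 39.8, 36.5 and 39.9 TPM in T+ (log2 difference 2.77 ± 0.06, adjusted p = 1.3e-12). Dmgdh, which breaks down dimethylglycine, was at 1.56, 2.12 and 1.4 TPM in SOX17+ and 15.6, 15.8 and 16.6 TPM in T+ (log2 difference -2.67 ± 0.10, adjusted p = 1.6e-10). They lay on opposite sides with no overlap. Serine synthesis genes Psph (47.6 ± 3.46 TPM in SOX17+ and 22.5 ± 1.05 TPM in T+; difference 1.04 ± 0.09) and Psat1 (0.49 ± 0.05) were higher in SOX17+. Bcat1 (19.8 ± 1.32 TPM in SOX17+ and 55.8 ± 2.21 TPM in T+; difference -1.45 ± 0.05), the creatine kinase Ckb (-1.84 ± 0.06) and Fah (-1.24 ± 0.07) were higher in T+, and Glul (388 ± 19.4 TPM in SOX17+ and 197 ± 8.53 TPM in T+; difference 0.98 ± 0.04) and Aldh18a1 (1.01 ± 0.04) in SOX17+. Amino acid transporters were higher in SOX17+ in 19 of 35, with Slc7a8 (2.62 ± 0.12) and Slc6a4 (2.09 ± 0.08) furthest apart, while Slc38a4 (135 ± 3.19 TPM in SOX17+ and 249 ± 4.25 TPM in T+; difference -0.88 ± 0.05) was higher in T+. In nucleotide synthesis Prps1, which makes the ribose precursor of nucleotides, was higher in T+ (18.5 ± 0.254 TPM in SOX17+ and 55.4 ± 1.71 TPM in T+; difference -1.53 ± 0.04), and the pentose phosphate enzyme G6pdx was higher in SOX17+ (77.3 ± 1.94 TPM in SOX17+ and 49.5 ± 1.8 TPM in T+; difference 0.63 ± 0.04).

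Iron, ion and detoxification genes held some of the most abundant differences. Fth1, the heavy chain of ferritin, measured 4739, 5069 and 4736 TPM in SOX17+ and 1643, 1734 and 1742 TPM in T+ (log2 difference 1.51 ± 0.03, adjusted p = 6.6e-13), while the light chain Ftl1 stood at 1448 ± 94.9 TPM in SOX17+ and 1425 ± 83 TPM in T+ and was not called. The iron exporter Slc40a1 was higher in SOX17+ (10.9 ± 0.299 TPM in SOX17+ and 2.24 ± 0.275 TPM in T+; difference 1.87 ± 0.07). Alas2, the erythroid haem enzyme, was too (1.36 ± 0.12), and it belongs to the blood list as well. Car4, a membrane-bound carbonic anhydrase, stood at 628, 635 and 634 TPM in SOX17+ and 39.1, 48 and 49.6 TPM in T+ (log2 difference 3.77 ± 0.09, adjusted p = 1.2e-11). Atp1b2, a beta subunit of the sodium pump, was higher in T+ (10.1 ± 0.653 TPM in SOX17+ and 48.5 ± 3.69 TPM in T+; difference -2.15 ± 0.08). The xenobiotic enzymes Cyp1a1 (27.2 ± 2.41 TPM in SOX17+ and 1.21 ± 0.309 TPM in T+; difference 3.68 ± 0.11) and Cyp1b1 (2.95 ± 0.10) and Ahr (1.32 ± 0.08), whose protein induces both, were higher in SOX17+. Gsto1 (16.7 ± 0.662 TPM in SOX17+ and 42.1 ± 1.55 TPM in T+; difference -1.29 ± 0.07) and Gstk1 (-1.26 ± 0.11) were higher in T+.

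**Figure D5:**
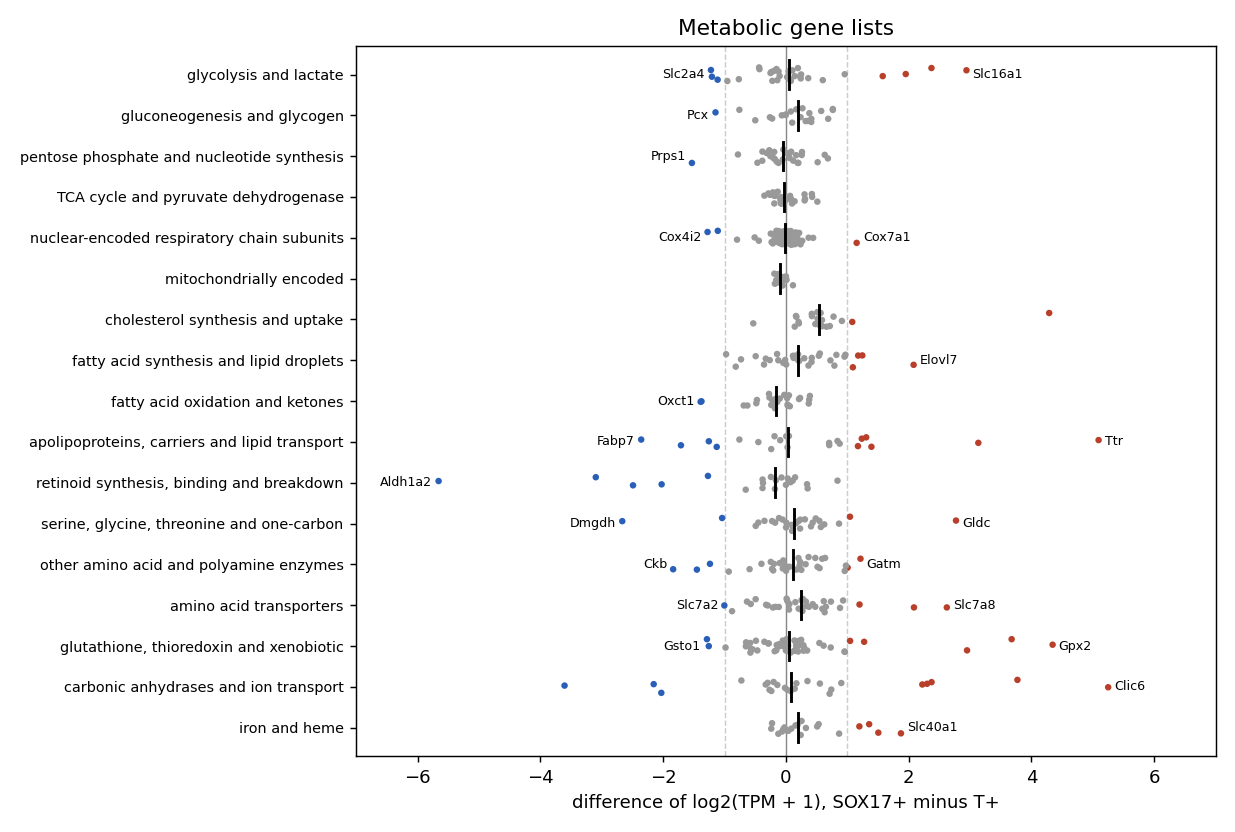
Difference of log2(TPM + 1), SOX17+ minus T+, of each tested metabolic gene by list. Red and blue points were called and at least 2-fold higher in SOX17+ or T+, grey points were not, black bars are list medians and dashed lines mark 2-fold. Respiratory chain and TCA cycle genes lie close to 0, and the cholesterol median lies right of it.

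The labelled lineages were checked on marker lists, some of which hold T or Sox17, on whose reporters the cells were sorted. The counts and sums without these genes were added after the data were seen. Of the definitive endoderm genes 14 of 16 were higher in SOX17+, 12 at least 2-fold, with Cxcr4 higher in T+ and Cer1 not called, and without Sox17 these were 13 and 11 of 15. All 17 nascent and paraxial mesoderm genes tested were at least 2-fold higher in T+, and so were all 16 without T. Without T, their summed level was 39.6 to 43.2 TPM in SOX17+ and 455 to 509 TPM in T+. Lateral and cardiac genes were less one-sided, 9 of 13 higher in T+, with Foxf1 (16.5 ± 1.63 TPM in SOX17+ and 60.3 ± 4.27 TPM in T+; difference -1.81 ± 0.09) and Hand2 (-1.67 ± 0.11), and 3 in SOX17+, with Gata5, Tbx3 and Nkx2-5 (0.99 ± 0.12). The blood and endothelium lists, lineages that derive from mesoderm, were mostly higher in SOX17+, as given above. T+ libraries also held transcripts of the endoderm list, without Sox17, at a summed 597 to 722 TPM, against 2519 to 2682 TPM in SOX17+. That list includes the keratin, junction and epithelial genes Krt8, Krt18, Cldn6 and Epcam, and also Gata4 and Cxcr4. By their levels given above, these genes are a large part of both sums, which are thus not particular to endoderm.

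Visceral endoderm, an extraembryonic tissue, shares many genes with definitive endoderm and liver. Its marker list includes Hnf4a, Ttr and Apoa1, which are described above or counted among the lipid carriers. Of its 16 tested markers 12 were higher in SOX17+, 10 at least 2-fold, and 2 in T+, 1 at least 2-fold. The list's summed level was 777 to 812 TPM in SOX17+ against 219 to 262 TPM in T+. Its most abundant members were Sparc (394 ± 4.7 TPM in SOX17+ and 135 ± 14.5 TPM in T+; difference 1.54 ± 0.09) and Cited1 (238 ± 20.2 TPM in SOX17+ and 27.4 ± 5.15 TPM in T+; difference 3.08 ± 0.19). No tested member was at 0 in all 6 libraries, and in mESC libraries the list summed to 664 to 785 TPM. The endocytic receptor Lrp2, chosen after its values were seen, was low in both groups (0.684 ± 0.236 TPM in SOX17+ and 0.842 ± 0.119 TPM in T+), and Afp did not pass the filter on low values. The part of visceral endoderm in the rises of Hnf4a, Ttr and Apom was not tested. Node and notochord genes, beside Noto, Shh and Nog above, were higher in T+ in 7 of 9, or 6 of 8 without T. Without T, which the sort selected, their summed level was 77.3 to 144 TPM in T+ and 97.2 to 116 TPM in SOX17+, so the sums overlapped. Most of the SOX17+ sum was Foxa2, given above with the endoderm factors and the only member higher in SOX17+. Foxa2 stood at 83.5 ± 6.8 TPM in SOX17+ and 26.2 ± 8.9 TPM in T+.

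Cell cycle genes were lower in SOX17+ in 11 of 17 cases, with a median of -0.56, as in Top2a (123 ± 2.03 TPM in SOX17+ and 244 ± 13.6 TPM in T+; difference -0.98 ± 0.04) and Ccnb1 (90.9 ± 4 TPM in SOX17+ and 174 ± 17.2 TPM in T+; difference -0.92 ± 0.06). The cell cycle inhibitor Cdkn1c was at 415, 422 and 401 TPM in SOX17+ and 158, 196 and 200.0 TPM in T+ (log2 difference 1.16 ± 0.08, adjusted p = 6.9e-08). With the cyclin genes Ccne2 (0.65 ± 0.08) and Ccne1 (0.14 ± 0.05) it made up the 3 genes of this list higher in SOX17+. Ccne1 was not called in a fit of the 6 libraries alone. Of 11 dissociation stress genes 4 were higher in SOX17+, among them Egr1 (0.75 ± 0.19). In T+ 2 were higher, Fos (-0.61 ± 0.12) and Dusp1 (-0.34 ± 0.08), and none of the list differed by at least 2-fold. Feeder fibroblast markers summed to 64.2 to 72.6 TPM in SOX17+ and 75.2 to 90.2 TPM in T+, against 4673 TPM or more in mESC libraries. Of the pluripotency list 7 of 14 were higher in T+, 3 at least 2-fold, and 3 in SOX17+, where Tfcp2l1 alone reached 2-fold. Pou5f1 stood at 5.69 ± 0.529 TPM in SOX17+ and 92 ± 16.8 TPM in T+. Nanog was at 4.5 ± 1.38 TPM in SOX17+ and 13.3 ± 2.01 TPM in T+ (difference -1.40 ± 0.22).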

How the data were processed

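The 12 libraries were given as 1 table of TPM, which the authors made per the submitters' processing notes with cutadapt, STAR and StringTie on mm10/GRCm38. Their versions and strand settings were not given. TPM keeps no read counts, so no count test was possible. The 282 empty cells were read as 0, and the rows of 11 genes split over several rows were summed. The filter kept 16097 of 54446 genes, those reaching 1 TPM in 3 or more of all 12 libraries. log2(TPM + 1) was computed from the deposited TPM values and fitted with limma 3.58.1 in R 4.3.3 (all 12 libraries, 4 groups, trend and robust), and p-values were adjusted by Benjamini-Hochberg over all genes tested. The pseudocount understates the fold of low genes. The fit was tested on simulated data. Named genes were T and Sox17, the 15 largest non-overlapping differences in each direction with at least 10 TPM in the higher group, and from each list the 3 largest called differences in each direction and the 2 most abundant members. Marker lists also gave their 3 most abundant members in either group. The comparison and the gene lists were chosen with earlier results of these data known. Alternatives changed the pseudocount, filter, scaling, libraries fitted and prior, added a replicate block, or left out each replicate in turn. Promoters came from RefSeq (GRCm38.p6), matched by symbol. Some genes that the rule names are not reported here.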

Additional observations from a re-analysis of the deposited data

How the results depend on the processing

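The number of genes at least 2-fold apart depended on the pseudocount: with 0.1 in place of 1 it was 2144 instead of 1392, and 1029 instead of 595 were higher in T+, since a smaller pseudocount shrinks low genes less. With that pseudocount, 47 named genes of at least 2-fold, such as Nkx2-1, Gata1, Hoxa3 and Pcdh19, moved by more than 1.5 times, and none did so under the other settings. Leaving out each replicate in turn gave 8030 to 8289 genes called, against 8767, and 1371 to 1422 at least 2-fold. Of the called genes 46.7% were higher in SOX17+, 44.7% with quantile normalization, 49.3% with median-of-ratios scaling and 50% without SOX17+ replicate 2. Of 457 named genes 20 lost their call under at least 1 alternative, none of them at least 2-fold, and none was called in the opposite direction. Over all genes, 1 was called in the opposite direction with quantile normalization. Deviations from the group means, across genes, correlated at r = 0.025, 0.033 and 0.148 between same-numbered libraries of SOX17+ and T+. Between libraries of unlike number r ran from -0.111 to 0.081. The highest value, 0.148, was that of SOX17+ replicate 3 with T+ replicate 3, while SOX17+ replicate 2 correlated best with T+ replicate 1. Deviations from means of 3 libraries cannot settle whether the numbers pair the libraries. A fit of the 6 libraries with the replicate number as a block called 8799 genes, 1395 at least 2-fold, against 8351 and 1394 without the block. Depth is unknown, so the precision of low TPM values could not be given, and 3 libraries a group limit every test.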
